A study of Mus musculus with 4 samples.

Results

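miR-223 is counted here as its 2 mature strands (arms), miR-223-3p and miR-223-5p (mmu-miR-223-3p and mmu-miR-223-5p in the files), which are cut from opposite arms of a single hairpin. They were found by name and are 2 of the 2129 lines of the deposited table, or 2 of its 1979 mature miRNAs. Both were expressed, defined as a mean of at least 10 RPM (each count scaled to a library sum of 1000000) over the 4 libraries, a level that 251 mature miRNAs reached. The libraries hold small RNA from bone marrow-derived macrophages (BMDMs) of mice on a mixed 129/B6 background, 6 to 7 months old, with 3 mice named for each genotype. Marrow was plated at 85000 cells per cm2, grown for 8 to 9 days with 10 ng/ml of the macrophage growth factor M-CSF, and then given fresh LPS-free medium for 16 h. Wild-type animals gave 2 cultures with 1 library each, WT A and WT B. The others are 1 library from cultures lacking miR-146a (KO) and 1 library from cultures with the 3′F allele, whose miR-146a keeps its seed while its 3′ end carries bases of the partner arm. Both alleles came from gene targeting in embryonic stem cells, and the 2 mouse lines were bred apart, so allele and line cannot be told apart. All the cells are resting, and the labels do not say whether a library pools mice.

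miR-223 is a miRNA of the myeloid lineage. Its gene is switched on by the transcription factors PU.1 and C/EBPα, and its level is high in granulocytes and falls as monocytes become macrophages. The 3p strand is the one usually loaded into Argonaute, where it pairs through its seed with targets such as the mRNAs of the transcription factor Mef2c and the inflammasome sensor Nlrp3. Mice without miR-223 have more granulocytes, and these are overly reactive. Bulk RNA cannot tell a change in the number of cells of a type from a change in RNA per cell.

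Both mature strands are shown because the results compare them. They are RefSeq entries on GRCm38.p6, read 5′ to 3′, with the seed (bases 2 to 8) in capitals.
miR-223-3p: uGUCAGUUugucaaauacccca
miR-223-5p: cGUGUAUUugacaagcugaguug
The seeds differ, so the strands address different sites. Among the 1679 mature miRNAs of the RefSeq table, 0 others carried either seed. With bases 2 to 7 alone, 1 other matched the 3p strand, miR-344f-5p, which is listed at 0 in all 4 libraries, and 0 matched the 5p strand.

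The hairpin itself, annotated as Mir223, is 110 nt long and lies on the plus strand at chrX:96242817-96242926 (GRCm38.p6). It is shown in full, with both mature strands in capitals, because the counts used here are those given for the 2 strands.
Mir223 hairpin: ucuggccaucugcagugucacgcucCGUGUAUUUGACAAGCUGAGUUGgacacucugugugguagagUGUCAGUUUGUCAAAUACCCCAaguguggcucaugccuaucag
The 5p strand takes bases 26 to 48 (chrX:96242842-96242864) and the 3p strand bases 68 to 89 (chrX:96242884-96242905), with 19 nt between them. In the fold predicted by RNAfold, at -44.0 kcal/mol, 15 bases of the 5p strand paired with the 3p strand. Their longest stretch of perfect complement, of 11 bases, is in capitals here.
miR-223-5p: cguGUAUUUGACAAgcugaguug
miR-223-3p: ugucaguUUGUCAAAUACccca
In GENCODE vM21 the hairpin lies inside F630028O10Rik, a noncoding RNA gene on the same strand. It is exonic there, in exon 3 of transcript F630028O10Rik-201 and exon 2 of F630028O10Rik-202. The nearest other gene is Vsig4, a complement receptor gene of tissue macrophages, 4277 bp away on the opposite strand. In the same annotation, 0 other miRNA genes lie within 1 Mb on either side, so miR-223 has no clustered neighbor.

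Total counts were 17073442 for WT A, 11410940 for WT B, 19087640 for KO and 16194595 for 3′F. At these depths 3 counts are worth 0.157 (KO) to 0.263 RPM (WT B), far below both strands. Counts of the miR-223 lines were whole numbers in every library, so no reads on them were shared out with another miRNA. The genotype labels were checked on the targeted miRNA. miR-146a-5p was at 6253 and 5485 RPM in the WT cultures, 13.4 in KO and 6.64 in 3′F, and the line for the 3′F miRNA was at 10.6 RPM in 3′F and listed at 0 in the other 3 libraries. These reads check the labels and do not compare the amounts of the WT and 3′F miRNAs. By qRT-PCR the study reported similar absolute amounts of them in most tissues and cells. It warns that ligation during library making depends on sequence, sometimes by orders of magnitude. With 1 library each, KO and 3′F are compared with WT without a replicate check, and no p-value is given. The difference between WT A and WT B serves as the spread.

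miR-223-3p, the main strand, was read 26868 and 16731 times in the WT cultures, 31228 times in KO and 24344 times in 3′F. Scaled to library size, WT A had 1574 RPM (95% Wilson interval 1555 to 1593), WT B 1466 (1444 to 1489), KO 1636 (1618 to 1654) and 3′F 1503 (1484 to 1522). These intervals cover counting error only, since reads copied by PCR are not separate molecules. The 4 values lie close together: WT was at 1520 ± 76.0 RPM (SD, n = 2 cultures), KO was the highest library and 3′F lay between the WT cultures.

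miR-223-5p, the strand usually discarded, was read 9420 and 7648 times in the WT cultures, 15514 times in KO and 9455 times in 3′F. WT A had 552 RPM of it (541 to 563), WT B 670.2 (655 to 685), KO 813 (800.1 to 826) and 3′F 584 (572 to 596). It varied more than the main strand. WT was at 611 ± 83.8 RPM (SD, n = 2 cultures), KO was again the highest library, and 3′F again lay between the WT cultures.

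**Figure D1:**
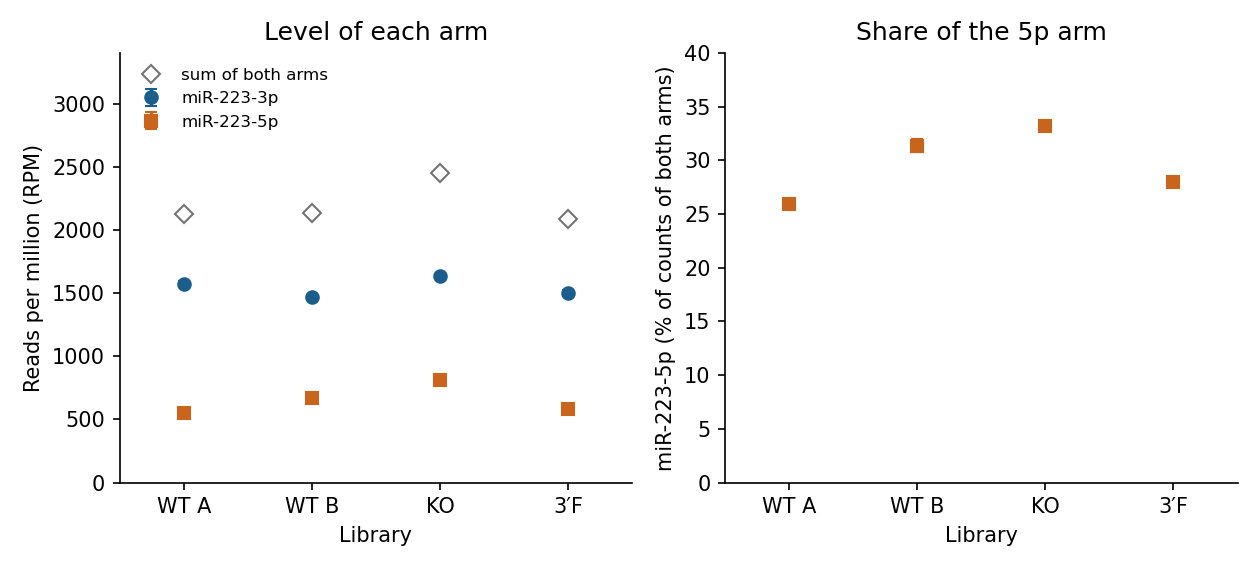
Left, RPM of miR-223-3p (circles), miR-223-5p (squares) and their sum (open diamonds) in each of the 4 libraries. Right, counts of miR-223-5p as a percentage of the counts of both strands, from 26.0% in WT A to 33.2% in KO. Each point is 1 library, and bars, mostly hidden by the symbols, are 95% Wilson intervals of the counts.

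Among 1979 mature miRNAs, miR-223-3p had rank 40 (WT A), 48 (WT B), 43 (KO) and 42 (3′F). The ranks of miR-223-5p were 79, 73, 69 and 74 in that order. The miRNAs next to them by mean WT level were not distinguishable from them within the WT spread. miR-223-3p (WT mean 1520 RPM) stood between miR-98-5p (1546) and miR-30c-5p (1500), whose WT values ran from 1507 to 1585 and from 1395 to 1604. miR-223-5p (611) stood between miR-320-3p (612) and miR-200b-3p (609.8), with WT values from 534 to 689 and from 512 to 707.

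miR-223 was far below the most abundant miRNA of the macrophages. miR-21a-5p, which took between 33.4% and 37.9% of a library, had 241 times the reads of miR-223-3p in WT A and 204 times in KO. Against miR-142a-3p, a miRNA of all blood lineages, the order differed between libraries. miR-142a-3p was at 1721 and 1121 RPM in the WT cultures, 1115 in KO and 1071 in 3′F. It thus exceeded miR-223-3p in WT A, whereas miR-223-3p had 1.31 times its reads in WT B, 1.47 times in KO and 1.40 times in 3′F. miR-155-5p, which rises on inflammatory activation, was at 71.3, 70.3, 55.2 and 62.7 RPM in the same order, and miR-223-3p had between 20.9 (WT B) and 29.6 (KO) times its reads. Such ratios compare reads, because the ligation of a small RNA during library making depends on its sequence.

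**Figure D2:**
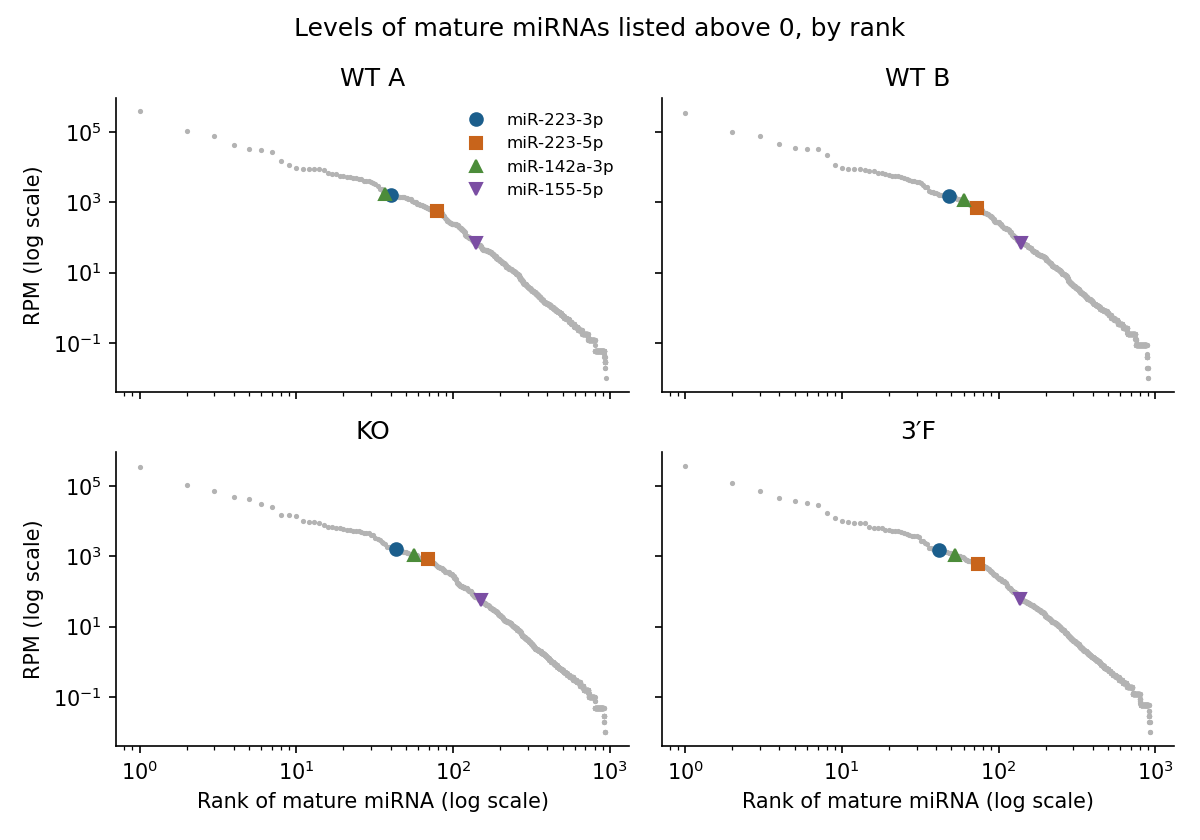
RPM of every mature miRNA listed above 0 against its rank, both on log scales, with 1 panel for each library. miR-223-3p (circle) stays between rank 40 and rank 48 and miR-223-5p (square) between rank 69 and rank 79, above miR-155-5p (downward triangle), while miR-142a-3p (upward triangle) lies above miR-223-3p in WT A only.

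Taking both strands together, the hairpin gave 2125 RPM in WT A and 2136 in WT B, against 2449 in KO and 2087 in 3′F. That is between 0.209% (3′F) and 0.245% (KO) of a library. Among the 748 hairpins that have a line for each strand and no other precursor, its total had rank 27 in WT A and 3′F and rank 28 in WT B and KO. The WT cultures were nearly equal in this total, 2131 ± 7.81 RPM (SD, n = 2 cultures), a difference of 0.0075 on the log2 scale for WT B over WT A. This was the 4th smallest of 63 hairpins with both strands expressed, whose median difference was 0.14 in size. The near equality depends on the scaling of the libraries: with edgeR's TMM factors the same difference was -0.13, and with DESeq2's size factors it was -0.094. TMM moved the median of all expressed miRNAs for WT B over WT A from 0.071 to -0.065.

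The division of this total between the strands varied from library to library. Of the counts of both strands, miR-223-5p made up 26.0% (25.5 to 26.4) and 31.4% (30.8 to 32.0) in the WT cultures A and B, 33.2% (32.8 to 33.6) in KO and 28.0% (27.5 to 28.5) in 3′F. Per read of miR-223-5p there were 2.85 (WT A), 2.19 (WT B), 2.01 (KO) and 2.57 (3′F) reads of miR-223-3p. WT A and WT B lay 0.38 apart in log2(5p/3p), rank 14 of the 63 hairpins by size, and WT B was closer to KO than to WT A. From WT A to WT B the 3p strand was lower by 0.10 and the 5p strand higher by 0.28 on the log2(RPM + 1) scale. Opposite moves of this kind between the WT cultures were seen in 30 of the 63 hairpins.

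Both strands are counted in the same library, so this ratio does not depend on library scaling. In KO it was 0.31 above the WT mean on the log2 scale, rank 9 of 63 hairpins from the largest rise and rank 27 by size. It was above both WT cultures, as it was in 31.7% of the 63 hairpins (49.2% lay below both), but 0.12 above WT B and 0.50 above WT A, the former less than the 0.38 between the WT cultures. In 3′F the ratio was -0.044 from the WT mean and lay between the WT cultures, as it did in 30.2% of the hairpins (30.2% lay above both and 39.7% below). By size this was rank 59 of 63. The size of the difference had a median over the 63 hairpins of 0.24 between the WT cultures, 0.27 for KO and 0.15 for 3′F.

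By log2(5p/3p), the largest rises in KO among the 63 hairpins were those of the miR-1839 (0.79), miR-23b (0.62) and miR-350 (0.56) hairpins, and the largest falls those of miR-152 (-0.84), miR-362 (-0.75) and miR-324 (-0.73). In 3′F they were miR-222 (0.63), miR-450b (0.48) and miR-142a (0.34), and miR-1981 (-0.52), miR-191 (-0.44) and miR-140 (-0.43). The miR-23b and miR-350 hairpins had also differed by 0.56 and 0.76 between the WT cultures.

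**Figure D3:**
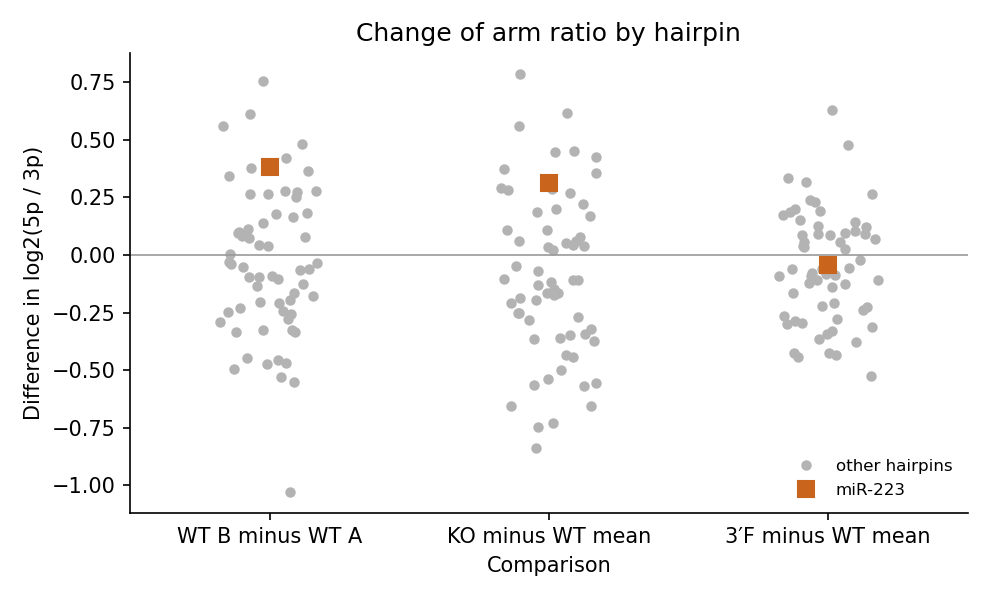
Difference in log2(5p/3p), with 0.5 counts added to each strand, for 63 hairpins with both strands at a mean of at least 10 RPM. Each gray point is a hairpin, spread sideways for legibility, and the square is miR-223: 0.38 between the WT cultures, 0.31 in KO and -0.044 in 3′F.

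The minor strand of miR-223 had many reads for a minor strand. Over the 4 libraries miR-223-5p made up 29.8% of the level of both strands, the 9th most even split of the 63 hairpins, of which 13 had a minor strand at 25% or more. Among the minor strands of all 748 hairpins, miR-223-5p was the 7th most abundant.

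The comparison of KO with WT asks whether loss of miR-146a goes with another level of miR-223 in resting macrophages. miR-223-5p was 1.47-fold its level in WT A and 1.21-fold that in WT B, a log2 ratio of 0.42 to the WT mean, against 0.28 between the WT cultures. miR-223-3p was 1.04-fold and 1.12-fold, a log2 ratio of 0.11, against a difference of 0.10 in size between the WT cultures. The sum of both strands was 1.15-fold the WT mean, a log2 ratio of 0.20, against 0.0075 between the WT cultures (-0.13 with TMM factors). This sum lay above both WT libraries under the deposited and all 4 other scalings. By its rise it had rank 17 of the 63 hairpins with both strands expressed. How many of these hairpins had a sum above both WT libraries was not counted, so this place has no share beside it. With WT cultures this nearly equal at the deposited scaling, a small difference is enough to lie outside them. Neither strand was called changed, which required at least 2-fold from both WT libraries. Of the 251 expressed miRNAs, 9 (3.59%) were called in KO, 5 higher (1.99%) and 4 lower (1.59%), with the targeted miR-146a-5p among the latter. At 1.5-fold, 10.8% were called, and again neither strand was. Both strands lay above both WT libraries, but so did 37.8% of expressed miRNAs, while 39.4% lay below both and 22.7% between them. By its rise miR-223-5p had rank 32 and miR-223-3p rank 96 of 251. Among 39 miRNAs within 2-fold of the WT level of miR-223-5p, 6 rose at least as much as it did, and among 34 near miR-223-3p, 11 did. The place of miR-223-3p above both WT libraries was lost when miR-21a-5p was left out of the totals, with a log2 ratio of 0.062. miR-223-5p stayed above both under all 4 other scalings, with ratios from 0.37 to 0.46.

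The comparison of 3′F with WT asks the same of the altered 3′ part of miR-146a. miR-223-3p was 0.955-fold its level in WT A and 1.03-fold that in WT B, a log2 ratio of -0.015, rank 240 of 251 by size. miR-223-5p was 1.06-fold and 0.871-fold, a log2 ratio of -0.059, rank 196 by size. The sum of both strands had a log2 ratio of -0.030, against 0.0075 between the WT cultures. This sum lay below both WT libraries, and between them with TMM or DESeq2 factors. The share of hairpins with a sum below both was not counted. Both strands lay between the WT libraries, as 33.1% of expressed miRNAs did (22.7% lay above both and 44.2% below), and did so under all 4 other scalings. Neither was called changed, against 2 of 251 (0.797%), both lower (the targeted miR-146a-5p and the erythroid miR-451a), and 2.39% at 1.5-fold. The sign of both ratios turned with edgeR's TMM factors (0.064 and 0.020) and with DESeq2's size factors (0.055 and 0.011). The differences of the single strands are smaller than those between the WT cultures, and a change of their size could not be told from the spread with 2 WT libraries.

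Between the mutants, miR-223-5p was 1.39-fold higher in KO than in 3′F and miR-223-3p 1.09-fold higher. On the log2(RPM + 1) scale these are 0.48 and 0.12, each from 1 library against 1, with no test of the difference.

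**Figure D4:**
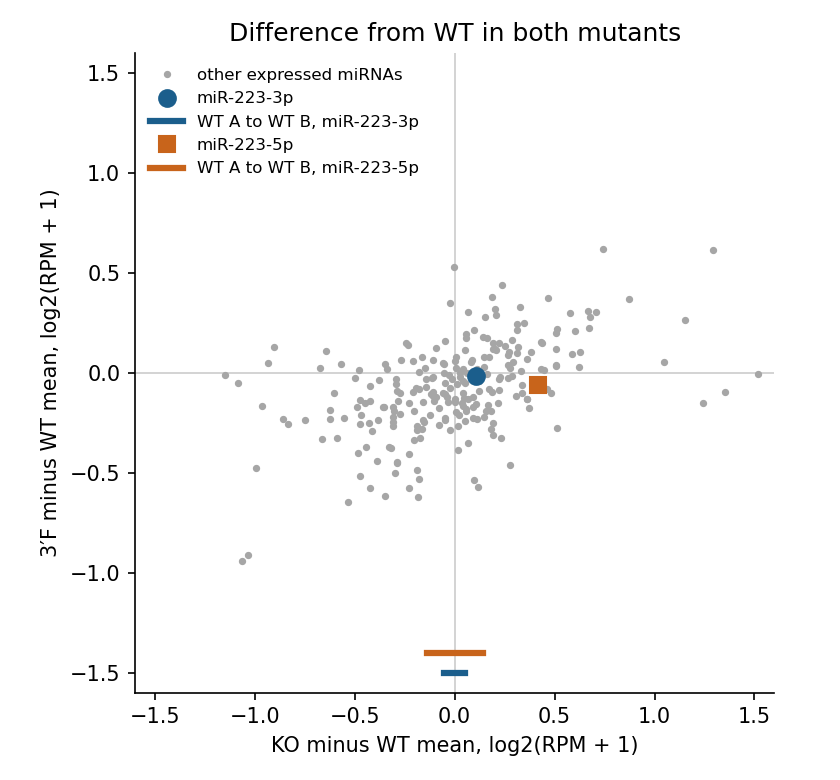
Difference from the WT mean in KO (x axis) and in 3′F (y axis) on the log2(RPM + 1) scale for expressed miRNAs, 247 of which lie inside the axes and 4 outside. miR-223-3p (circle) lies near the origin and miR-223-5p (square) to its right at 0.42 in KO, and the bars at the bottom show the distance between WT A and WT B for each strand, centred on 0.

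The miRNAs most like each strand over the 4 libraries were found from log2(RPM + 1) minus its mean over the libraries. Likeness is the largest distance in any library, so a smaller value is a closer match. Closest to miR-223-3p were miR-103-3p (0.026), miR-148b-5p (0.040), miR-872-5p (0.041), miR-101b-3p (0.050) and miR-181b-1-3p (0.054), none of which moved as far from its mean as miR-223-5p did. The median over 250 miRNAs was 0.27. Closest to miR-223-5p were let-7b-5p (0.039), miR-130b-5p (0.056), miR-30a-5p (0.067), let-7c-5p (0.082) and let-7a-5p (0.094), with a median of 0.37. These shared its order, lowest in WT A, then 3′F, then WT B, and highest in KO. let-7b-5p, for example, was at 1223 and 1483 RPM in the WT cultures, 1855 in KO and 1272 in 3′F. The other strand of the same hairpin was no close match: miR-223-3p was number 64 of 250 for miR-223-5p (0.26), and miR-223-5p number 113 for miR-223-3p. With 4 libraries of shared composition, such likeness is a description only.

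**Figure D5:**
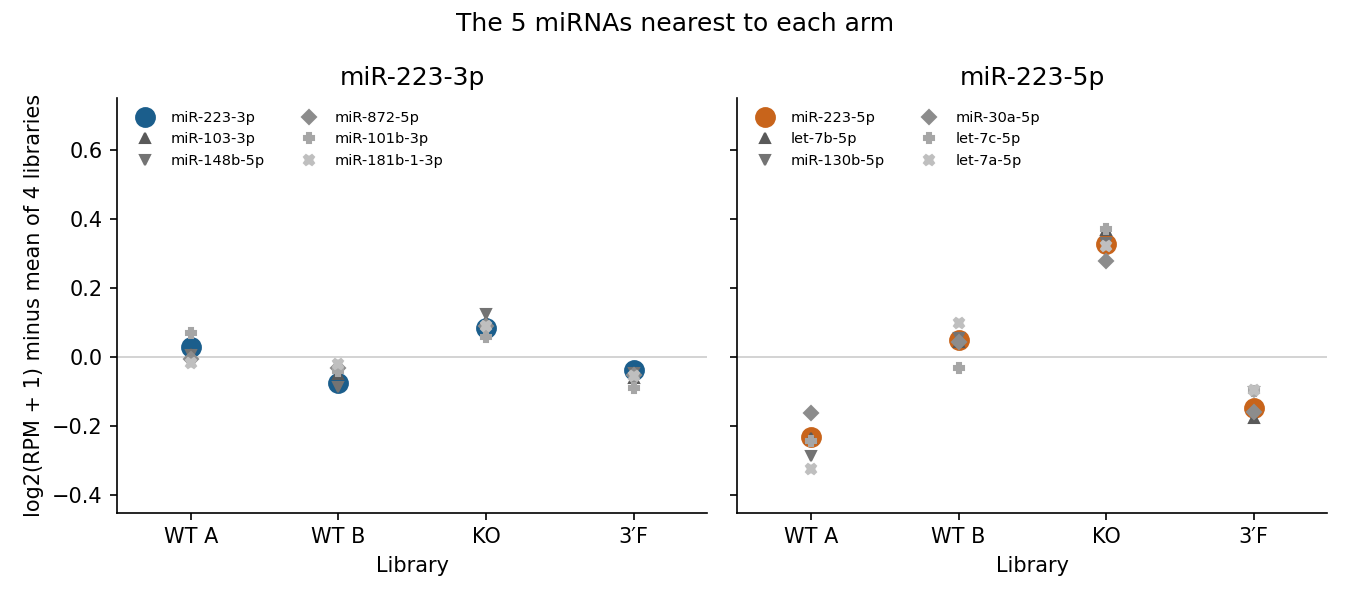
Level in each library on the log2(RPM + 1) scale minus its mean over the 4 libraries, for miR-223-3p (left) and miR-223-5p (right, both as large circles) with the 5 nearest miRNAs of each. miR-223-3p stays within 0.084 of its mean, whereas miR-223-5p runs from -0.23 in WT A to 0.33 in KO.

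Other miRNAs of the myeloid program were taken from lists drawn from general knowledge. Whether members of a list come from a shared transcript was not checked, so they are not independent, here or in the lists below. Of 3 miRNAs reported to be driven by C/EBPα, as miR-223 is, all were expressed. miR-30c-5p lay above both WT libraries in KO (1688 RPM against 1395 and 1604), and miR-34a-5p and miR-328-3p lay between them, against 37.8% above both among all expressed miRNAs. In 3′F, miR-34a-5p lay below both (128 RPM against 163 and 139), against 44.2% of all expressed miRNAs, and the other 2 between them. The members' median on the log2 scale was 0.11 (KO) and -0.079 (3′F), against 0.0094 and -0.079 for all expressed miRNAs. In 3′F, 0 of the 3 lay below both WT libraries with TMM or DESeq2 factors, and 2 did without miR-21a-5p.

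Of 4 miRNAs reported to depend on PU.1, 3 were expressed. miR-342-3p was at 749 and 732 RPM in WT, 464 in KO and 754 in 3′F, a log2 ratio of -0.67 in KO. miR-155-5p was below both WT libraries in KO and in 3′F (-0.35 and -0.17), and miR-322-5p, the mouse counterpart of miR-424, was between them in KO and below both in 3′F. miR-338-3p was at 3.41 to 4.16 RPM. Of the 3, 2 lay below both WT libraries in KO, against 39.4% of all expressed miRNAs, and 2 in 3′F, against 44.2%. With TMM or DESeq2 factors the number in 3′F was 1. The list's median was -0.35 (KO) and -0.17 (3′F) on the log2 scale.

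Of 5 miRNAs listed, without a check against a source, as falling from monocyte to macrophage, 4 were expressed. miR-17-5p was at 888 and 1030 RPM in WT, 714 in KO and 640.4 in 3′F, and miR-20a-5p at 1227, 1382, 1143 and 929 RPM. miR-16-5p was also below both WT libraries in KO (581 RPM) and 3′F (585), while miR-15a-5p was between them in KO and below both in 3′F. miR-106a-5p was at 2.23 to 3.52 RPM. The median was -0.15 (KO) and -0.36 (3′F) on the log2 scale. The number below both WT libraries was 3 of 4 in KO and 4 of 4 in 3′F, against 39.4% and 44.2% of all expressed miRNAs, and was 2 of 4 in each with edgeR's TMM factors. Both strands of miR-223 were above the WT libraries in KO and between them in 3′F.

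Markers of the cells in the cultures were set beside miR-223. Of 8 macrophage miRNAs, 6 were expressed, with a summed level of 397202 and 357742 RPM in the WT cultures, 356770 in KO and 374084 in 3′F, nearly all of it miR-21a-5p. In KO, 4 of the 6 lay above both WT libraries and 2 below (miR-21a-5p and miR-22-3p), against 37.8% and 39.4% of all expressed miRNAs. In 3′F, 4 lay above, against 22.7%, and 2 between. In both mutants miR-125a-5p, miR-99b-5p and let-7e-5p were among those above. In KO, 1 lay below with TMM or DESeq2 factors, and 3 lay above without miR-21a-5p. Their median log2 ratio was 0.35 (KO) and 0.14 (3′F). The other 2 members were under the 10 RPM minimum. Of these, miR-147-3p was at 8.96 and 11.9 RPM in WT, 5.71 in KO and 11.2 in 3′F. Its Wilson interval in KO (4.73 to 6.89 RPM) lay below those of both WT libraries. Such intervals cover counting error and not the spread between cultures. How many miRNAs had an interval clear of both WT libraries was not counted. miR-511-5p was at 2.17 and 1.58 RPM in WT, 2.78 in KO and 1.17 in 3′F, on 18 to 53 counts a library. miR-511-3p, from the gene of the macrophage mannose receptor, was at 76.8, 65.6, 80.8 and 66.4 RPM in WT A, WT B, KO and 3′F. The miR-142a strands, listed as markers of all blood lineages, summed to 1989, 1290.5, 1334 and 1278 RPM in that order. In both KO and 3′F, 1 of these strands lay below both WT libraries, against 39.4% (KO) and 44.2% (3′F) of all expressed miRNAs, and 1 between them, against 22.7% and 33.1%, and with TMM or DESeq2 factors both strands lay between them.

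Markers of other cells of the marrow differed in direction from list to list. The erythroid list (3 of 4 expressed, most abundant miR-486b-5p) summed to 170 and 159 RPM in WT, 70.3 in KO and 80.3 in 3′F, with all 3 expressed members below both WT libraries in each mutant (against 39.4% and 44.2% of all expressed miRNAs) and a median log2 ratio of -1.06 (KO) and -0.94 (3′F). Its miR-486 lines have fractional counts, so reads were shared between lines and these members are not independent. The lymphocyte list (2 of 3 expressed, most abundant miR-181a-5p) summed to 484, 559, 576 and 448 RPM, with 1 of 2 above both WT libraries in KO and 2 of 2 below in 3′F (medians 0.15 and -0.22), against 37.8% and 44.2% of all expressed miRNAs. In 3′F miR-181a-5p was at 243.95 RPM against 244.58 in WT A, and 1 of 2 lay below under 3 of the 4 other scalings. In KO, 2 of 2 lay above with TMM or DESeq2 factors. Its most specific member, miR-150-5p, was at 2.93 and 2.80 RPM in WT, 2.51 in KO and 1.54 in 3′F. That is below both WT libraries in each mutant, on 25 to 50 counts a library with overlapping Wilson intervals. The progenitor list (2 of 4 expressed, most abundant miR-10a-5p) summed to 4405 and 4597 RPM in WT, 5474 in KO and 5953 in 3′F, and both expressed members lay above both WT libraries in each mutant (medians 0.41 and 0.27), against 37.8% (KO) and 22.7% (3′F) of all expressed miRNAs. The other 2 members, both under the 10 RPM minimum, lay below both WT libraries in each mutant, on 6 to 23.5 counts a library with overlapping Wilson intervals. miR-196b-5p was at 1.38 and 1.31 RPM in WT, 0.63 in KO and 1.11 in 3′F, and miR-130a-3p, a miRNA of granulocyte precursors, at 0.61 and 0.74 RPM in WT, 0.45 in KO and 0.37 in 3′F. The stromal and endothelial list (1 of 6 expressed, miR-126a-3p) summed to 19.4 RPM in each WT library, 19.8 in KO and 16.6 in 3′F, most of it miR-126a-3p (10.7, 9.82, 13.2 and 10.3 RPM in WT A, WT B, KO and 3′F). Of the other members, miR-143-3p was at 4.74 and 4.91 RPM in WT, 2.10 in KO and 2.22 in 3′F. miR-199a-3p lay between the WT libraries in both mutants (3.18 and 3.71 RPM in WT, 3.63 in KO and 3.21 in 3′F). miR-214-3p had 3 and 5 counts in WT and 2 in each mutant, and miR-145a-5p 3 and 2 counts in WT and 0 in each mutant, too few to show a difference at this depth. miR-126a-5p was at 0.41 and 0.35 RPM in WT, 0.84 in KO and 0.74 in 3′F, on 4 to 16 counts a library with overlapping Wilson intervals. The part of any of these cells in the level of miR-223 was not tested, and no other granulocyte-specific miRNA was among the lists.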

How the data were processed

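Small RNA of 4 BMDM libraries was analysed. The authors deposited estimated counts for each mature miRNA and precursor, in which reads that fit several lines were shared out as fractions, and RPM values, each count per 1000000 counts of its library. The submitters' processing notes name cutadapt 1.8.3. The aligner, counter, genome build and miRNA release are not given in the sources used here. Of lines with the same mature name, that with the highest summed count was kept, and ratios were taken as differences of log2(RPM + 1), which understates the change of low miRNAs. Strand ratios used counts with 0.5 added, for hairpins with 1 precursor. No p-value was computed, since KO and 3′F have 1 library each. WT A and WT B were used as separate cultures because the study describes them so. Their counts were not copies of a single library (chi-square per degree of freedom 435 against counting noise), which does not bear on whether the cultures were separate. The ratio and call functions were tested on simulated libraries with known changes. Alternatives were 4 other scalings (including edgeR's TMM factors and, after rounding, DESeq2's size factors), leaving out either WT culture, adding 0.1 instead of 1 RPM, and other minimums and thresholds.

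The miRNAs named are both strands, the targeted miRNA, listed miRNAs, seed matches, the 5 nearest profiles, neighbors by level and the 3 largest strand shifts each way. miR-344f-5p was named after its value was seen. The miR-223 strands and the lists were chosen with earlier results of these data known, and list membership was not checked against a source. Sequences are from RefSeq (GRCm38.p6) and genes from GENCODE vM21. Python 3.11.15, numpy 2.4.6, pandas 2.3.3, scipy 1.17.1, matplotlib 3.10.9, R 4.3.3, edgeR 4.0.16, DESeq2 1.42.0 and RNAfold 2.7.2 were used.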

Additional observations from a re-analysis of the deposited data

Results flagged for a closer look

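Of the 251 expressed miRNAs, 34 (13.5%) lay on opposite sides of both WT libraries in KO and in 3′F, 16 (6.37%) under all 5 scalings. The 11 given here are those among the listed miRNAs, the nearest profiles, the neighbors by level and the strands of the hairpins named for their shifts. Each lay above both in one mutant and below both in the other, and the difference between the mutants was not tested. It is given as KO minus 3′F on the log2(RPM + 1) scale. Neither strand of miR-223 did so. Of the 11, 4 did so under all 4 other scalings (added after seeing the data), namely miR-22-3p, miR-362-3p, miR-324-3p and miR-1839-3p. The other 7 lost a side under at least 1 of them, miR-181a-5p, miR-103-3p and miR-872-5p under 3, miR-181b-1-3p and miR-450b-3p under 2, and miR-342-3p and miR-191-5p under 1. Higher in 3′F were miR-342-3p (-0.70), miR-22-3p (-0.17) and miR-1839-3p (-0.62). Higher in KO were miR-362-3p (0.79), miR-450b-3p (0.69), miR-324-3p (0.50), miR-181a-5p (0.31), miR-191-5p (0.26), miR-103-3p (0.16), miR-181b-1-3p (0.14) and miR-872-5p (0.14). Of these, miR-103-3p, miR-872-5p and miR-181b-1-3p are among the nearest profiles to miR-223-3p.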

How the results depend on the processing

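No paired analysis was possible because the mutants have single libraries: in the column names they share only the letter A with WT A, which gives 1 pair and no spread. Against WT A alone, miR-223-5p had a log2 ratio of 0.56 in KO and 0.081 in 3′F, miR-223-3p of 0.056 and -0.066, and the strand ratio moved by 0.50 and 0.15. Of 64 alternative values of 12 results, 48 stayed within the SD of the WT libraries on the log2 scale or, for counts and ranks, within 1.5 times. This SD is smaller than the difference between WT A and WT B. The log2 ratio of miR-223-5p in KO ran from 0.28 to 0.56 and that of miR-223-3p from 0.056 to 0.16, without a change of sign. In 3′F they ran from -0.20 to 0.081 and from -0.066 to 0.064, the last with edgeR's TMM factors. Without WT A or WT B the strand ratio was from 0.12 to 0.50 in KO and from -0.24 to 0.15 in 3′F. The rank of its shift among hairpins in KO, 9, became 19 with both strands at 1 RPM and 2 at 100 RPM, and from 8 to 22 when either WT culture was dropped. In 3′F the rank, 29, became 50 and 10, and was from 13 to 46. The number of miRNAs called in KO, 9, became 27 (1.5-fold), 4 (3-fold) or 17 (a minimum of 1 RPM, or none), and lay from 13 to 15 when either WT culture was dropped. In 3′F the number, 2, became 6 and 1, and was from 2 to 5. Fewer or more features tested set the counts and ranks at other minimums. For the other changes the cause was not tested. The hairpin total, added after seeing the data, had a log2 ratio from 0.16 to 0.25 in KO and from -0.044 to 0.049 in 3′F over the scalings.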
